A study of Mus musculus with 16 samples.

Results

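The 33 genes described here encode the proteins of sugar uptake, glycolysis, lactate handling and the cellular response to low oxygen, measured by RNA sequencing in mouse microglia and astrocytes. They were taken by symbol from a list of 33, using the feature with the most counts where a symbol occurred more than once, and were 33 of 55414 features in the microglia data and 33 of 56980 in the astrocyte data. All 33 passed the filter on low counts in both cell types. The 16 libraries, 2 per group in each cell type, came from 4 groups. AD CKO mice carried an Alzheimer's disease (AD) model together with a conditional knockout of Rack1 in microglia. AD WT mice carried the AD model without the knockout, CKO mice the knockout without the AD model, and WT mice neither. The name of the AD model, the Cre driver, the strain, the age, the way the cells were isolated and whether WT mice carried floxed alleles are not given in the sources used here. Nothing says that the 2 libraries of a group came from separate animals, so p-values measure only the spread between these libraries, which may be technical.

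Glucose enters brain cells through transporters of the SLC2A family, is phosphorylated by hexokinases and is broken down to pyruvate in the cytosol. Lactate dehydrogenase interconverts pyruvate and lactate, and the monocarboxylate transporters of the SLC16A family carry lactate across the membrane. The pyruvate dehydrogenase kinases inhibit pyruvate dehydrogenase, the mitochondrial enzyme that consumes pyruvate. Astrocytes are known for a high glycolytic rate and for releasing lactate that neurons can use, and activated microglia are known to shift towards glycolysis. HIF-1, a dimer whose oxygen-regulated subunit is encoded by Hif1a, binds the core motif ACGTG or GCGTG and is known to raise transcription of many glycolytic genes, and the EGLN prolyl hydroxylases mark that subunit for degradation when oxygen is present.

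Promoter windows of 300 bases (250 before to 50 after a transcription start) from RefSeq on GRCm38.p6, the assembly behind mm10, were found for 31 of the 33 genes. Slc2a3 and Slc16a7 had none. The motif ACGTG, searched on both strands, lay in at least 1 window of 21 of the 31 genes (67.7%), against 21.8% of all 27025 genes with a window. Counted by window, ACGTG lay in 25 of 47 (53.2%) for these genes and in 19.6% of all 32851. Either ACGTG or GCGTG lay in 76.6% of the 47 and in 43.8% of all. ACGTG is also part of CACGTG, the E-box that other factors bind, which lay in 17% of the 47 windows and in 7.15% of all. A match is a stretch of letters and not a shown binding site. The list was made of glycolytic and hypoxia genes, many of them known HIF-1 targets, so its share is no independent result. The shares were not matched for base composition or for windows per gene. The 5 windows below are examples, written 5′ to 3′ in the direction of transcription with every ACGTG and GCGTG match on either strand in capitals. A link between matches and the direction of a change was not tested. The windows of Tpi1 and Gpi1, which rose with the AD model in microglia, held 0 matches, while those of other genes that rose there held some.

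The first is a start of Ldha, the muscle-type lactate dehydrogenase subunit (chr7:46845554-46845853, plus strand). With both strands counted, this window held 7 matches, 5 of them ACGTG. Each E-box in it was counted on both strands, so fewer stretches than matches stand in capitals. The second is Pgk1, phosphoglycerate kinase (chrX:106186850-106187149, plus strand). The third is Egln3, an oxygen-sensing prolyl hydroxylase (chr12:54203825-54204124, minus strand). The fourth is Slc16a3, the lactate exporter MCT4 (chr11:120948817-120949116, plus strand). The last is Slc2a5, the fructose transporter GLUT5 (chr4:150119094-150119393, plus strand), whose window held 0 matches.
Ldha: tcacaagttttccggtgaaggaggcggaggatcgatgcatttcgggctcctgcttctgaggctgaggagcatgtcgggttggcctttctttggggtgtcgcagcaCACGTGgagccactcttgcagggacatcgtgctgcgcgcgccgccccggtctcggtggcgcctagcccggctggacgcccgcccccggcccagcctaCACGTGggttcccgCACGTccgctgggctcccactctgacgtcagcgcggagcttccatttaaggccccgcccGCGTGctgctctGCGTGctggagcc
Pgk1: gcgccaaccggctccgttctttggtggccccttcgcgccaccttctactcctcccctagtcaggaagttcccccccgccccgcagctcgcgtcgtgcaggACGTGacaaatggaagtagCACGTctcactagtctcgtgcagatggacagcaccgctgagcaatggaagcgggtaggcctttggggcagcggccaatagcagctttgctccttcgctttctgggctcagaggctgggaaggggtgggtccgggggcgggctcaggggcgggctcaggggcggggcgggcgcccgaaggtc
Egln3: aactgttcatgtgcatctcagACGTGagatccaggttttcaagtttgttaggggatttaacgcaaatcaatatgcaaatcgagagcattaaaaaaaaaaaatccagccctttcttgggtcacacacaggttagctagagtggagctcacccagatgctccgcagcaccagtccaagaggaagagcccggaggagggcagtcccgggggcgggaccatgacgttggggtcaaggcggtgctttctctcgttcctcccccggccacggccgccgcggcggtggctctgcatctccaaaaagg
Slc16a3: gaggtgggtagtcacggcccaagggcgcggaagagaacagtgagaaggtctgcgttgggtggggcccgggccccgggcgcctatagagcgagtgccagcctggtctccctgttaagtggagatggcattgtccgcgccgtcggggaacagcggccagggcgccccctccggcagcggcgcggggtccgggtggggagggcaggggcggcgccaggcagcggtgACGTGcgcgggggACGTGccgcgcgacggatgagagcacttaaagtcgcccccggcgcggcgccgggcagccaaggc
Slc2a5: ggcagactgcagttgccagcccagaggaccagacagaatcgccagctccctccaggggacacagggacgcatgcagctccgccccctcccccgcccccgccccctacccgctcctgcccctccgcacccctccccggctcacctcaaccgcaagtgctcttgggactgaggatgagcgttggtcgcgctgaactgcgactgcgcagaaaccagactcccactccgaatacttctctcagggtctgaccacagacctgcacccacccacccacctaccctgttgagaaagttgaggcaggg

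Total counts lay between 27741882 and 33933068 per microglia library and between 29615853 and 35851170 per astrocyte library, and summed counts of a gene in this list ran from 17 (Hk3 in an astrocyte library) to 88692 (Eno1 in an astrocyte library). Rack1, the targeted gene, averaged 47.5 ± 0.42 CPM in AD CKO and 114 ± 1.33 CPM in AD WT microglia, and 41.2 ± 1.12 CPM in CKO and 96.7 ± 2.05 CPM in WT microglia (SD, n = 2 each). CPM is the usual per-million unit, here with library totals adjusted by TMM factors. Microglial markers summed to 31700 to 50200 CPM in the 8 microglia libraries, oligodendrocyte markers to 2270 to 8630 CPM and astrocyte markers to 311 to 437 CPM there. In the 8 astrocyte libraries astrocyte markers summed to 10100 to 23100 CPM, oligodendrocyte markers to 6960 to 19200 CPM and ependymal and choroid markers to 4420 to 10900 CPM. Endothelial markers summed to 2450 to 7100 CPM there, mural markers to 829 to 1920 CPM and microglial markers to 517 to 1950 CPM. The astrocyte libraries thus held RNA of several cell types. In such bulk libraries, fewer cells of a type and less RNA per cell cannot be told apart. Counts of Pfkfb2, Pkm, Pfkp, Gpi1 and Bnip3 are less certain, since 1262, 767, 748, 741 and 504 bases of their exons overlap another annotated gene. For Pfkfb2 and Pkm that gene lies on the same strand, so reading the strand would not separate them. For Pfkp, Gpi1 and Bnip3 it lies on the opposite strand, and the use of strand in counting is not stated. Exons of Pfkm and Hif1a overlap other genes too, by at most 341 and 330 bases per gene.

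A gene is said to have risen or fallen when the edgeR quasi-likelihood test, adjusted by Benjamini-Hochberg over all genes tested, gave an adjusted p under 0.05. Log2 fold changes are given ± their standard error. Libraries of 2 groups that do not overlap are common here and say little about a single gene. They did not overlap for 52.7% to 65.5% of all genes tested in the microglia comparisons and 69.2% to 81.1% in the astrocyte comparisons. Between WT microglia and WT astrocytes the share was 88.8%.

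WT microglia and WT astrocytes differed in the main isozyme of 5 of the 8 families compared, by mean share of the level per kilobase, and shared it in 3. Each family here holds only its members among the 33 genes, so other forms, such as Slc2a6 and Pdk3, are not counted. In the joint fit 10 of the 33 genes were higher and 20 lower in microglia than in astrocytes, where 39.5% of all 20589 genes were higher and 39.4% lower (79.0% in either direction). The median log2 difference was -1.004 over the 33 genes and -0.01 over all genes. Only Ldha, Egln1 and Egln3 did not pass the test.

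Of the sugar transporters, Slc2a5 stood at 1037 and 1027 CPM in the WT microglia libraries, against 3.85 and 3.77 CPM in WT astrocytes. Slc2a1, the main glucose transporter GLUT1, stood at 209 and 204 CPM in microglia and at 811 and 773 CPM in astrocytes. Slc2a3, the glucose transporter best known from neurons, had 14.0 and 13.2 CPM in microglia and 4.03 and 2.98 CPM in astrocytes. Thus the groups were apart for all 3 genes, with log2 differences of 8.08 ± 0.07 for Slc2a5 (adjusted p = 2.13e-35), -1.94 ± 0.05 for Slc2a1 (adjusted p = 4.51e-25) and 1.96 ± 0.17 for Slc2a3 (adjusted p = 1.23e-11).

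Per kilobase of transcript, Slc2a5 supplied 83.1 ± 0.17% of the summed level of these transporters in WT microglia and 0.49 ± 0.01% in WT astrocytes, and Slc2a1 supplied 16.1 ± 0.14% and 99.2 ± 0.05% (SD, n = 2 each). The hexokinases, which trap glucose in the cell, split in the same way. Hk3 and Hk2 supplied 55.7 ± 1.12% and 26.9 ± 1.35% of the hexokinase level in WT microglia, and Hk1 supplied 98.6 ± 0.67% of it in WT astrocytes. Hk3 had 152 and 162 CPM in microglia against 0.99 and 0.46 CPM in astrocytes, and Hk2 had 132 and 127 CPM against 1.39 and 0.77 CPM. The shared main forms were Eno1 among the enolases (99.7 ± 0.12% in microglia and 99.6 ± 0.04% in astrocytes), Pfkfb3 among the PFKFB enzymes (93.5 ± 1.33% and 69.1 ± 2.72%) and Ldhb among the lactate dehydrogenase subunits (59.4 ± 0.83% and 74.1 ± 0.87%). Among the phosphofructokinases, which catalyse the committed step, the liver form Pfkl made up 84.6 ± 1.47% in WT microglia and 17.9 ± 0.03% in WT astrocytes. The muscle form Pfkm made up 9.53 ± 0.82% and 51.3 ± 0.45%, and the platelet form Pfkp 5.82 ± 0.65% and 30.8 ± 0.41%.

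The steps from aldolase to pyruvate kinase were lower in WT microglia throughout. All 6 genes from Gapdh to Pkm were lower, by log2 differences between -2.20 ± 0.22 for Eno2, the neuronal enolase (adjusted p = 4.45e-10), and -0.38 ± 0.04 for Pkm, pyruvate kinase (adjusted p = 1.80e-09). Per kilobase, Gapdh was the highest of the 33 genes in both cell types, at 565 and 636 CPM per kilobase in WT microglia and 1270 and 1205 in WT astrocytes. In WT microglia Aldoa (341 and 366), Slc2a5 (329 and 325) and Ldhb (325 and 327) followed, and Slc2a5 and Ldhb did not differ beyond their spread. In WT astrocytes the next were Eno1 (1025 and 941), Aldoa (898 and 862) and Ldhb (689 and 620).

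For lactate, Slc16a3 had 65.1 and 79.7 CPM in WT microglia and 1.88 and 1.61 CPM in WT astrocytes, a log2 difference of 5.38 ± 0.13 (adjusted p = 1.01e-23). Slc16a1, the widely expressed transporter MCT1, had 66.3 and 63.9 CPM in microglia and 277 and 289 CPM in astrocytes (-2.12 ± 0.06, adjusted p = 9.57e-24). Slc16a7, the high-affinity transporter MCT2, was higher in microglia by 3.01 ± 0.11 (adjusted p = 6.00e-21). Of these transporters Slc16a3 made up 46.3 ± 4.32% and Slc16a1 41.0 ± 3.06% in WT microglia, and Slc16a1 98.5 ± 0.10% in WT astrocytes. In the closer WT microglia library Slc16a3 and Slc16a1 were nearly level, at 43.28% and 43.15%. The main form of this family in WT microglia thus rests on a narrow lead. Ldha had 394 and 416 CPM in microglia and 424 and 407 CPM in astrocytes, values that overlapped, while Ldhb, the heart-type subunit, was lower in microglia by a log2 difference of -1.004 ± 0.05 (adjusted p = 3.33e-17).

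Of the 3 listed pyruvate dehydrogenase kinases, Pdk1 was the main one in WT microglia, at 63.7 ± 0.99% of their summed level. Pdk2 was the main one in WT astrocytes, at 86.1 ± 0.33%. Pdk3 is not among the 33 genes and does not enter these shares. Pdk4, the kinase induced by fasting in other tissues, had 1.37 and 1.25 CPM in microglia and 62.5 and 67.4 CPM in astrocytes. Vegfa, the vascular growth factor that HIF-1 induces, had 4.44 and 5.80 CPM in microglia and 347 and 368 CPM in astrocytes, the lowest log2 difference of the 33 (-6.13 ± 0.09, adjusted p = 1.10e-30). Hif1a itself was higher in microglia, by 0.80 ± 0.06 (adjusted p = 1.41e-13). Some of the low values in astrocyte libraries belong to genes that are high in microglia, and microglial markers summed to 517 and 522 CPM in WT astrocyte libraries. Those libraries also held oligodendrocyte marker sums of 14600 to 14800 CPM, ependymal and choroid sums of 4420 to 4760 CPM and endothelial sums of 2450 to 2460 CPM. The part of RNA of any of these cell types in the WT astrocyte levels and shares, Slc2a1 and Slc16a1 included, was not tested.

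**Figure D1:**
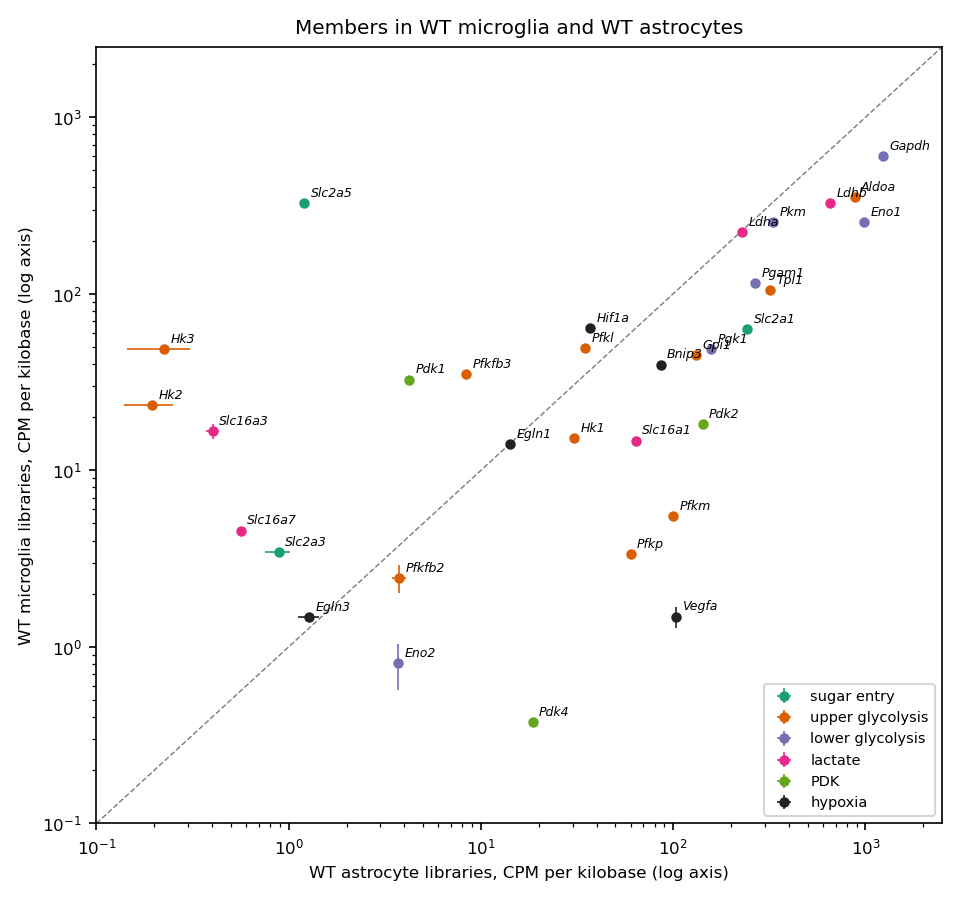
Each point is 1 gene, with its mean level in 2 WT astrocyte libraries on the x axis and in 2 WT microglia libraries on the y axis, both in CPM per kilobase on log axes, with bars from the lower to the higher library and colours for roles. Slc2a5, Hk3, Hk2 and Slc16a3 lie far above the line of equal level, Vegfa, Pdk4, Pfkm and Pfkp far below it, and Ldha and Egln1 lie on it.

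Most genes of lower glycolysis, lactate handling and the hypoxia response rose with the AD model in microglia. Of the hypoxia genes, the calls of Bnip3 and Egln1 hung on single libraries, as given below. In AD WT against WT microglia 19 of the 33 genes rose and 2 fell, where 10.7% of all 17318 genes tested rose and 8.62% fell (19.3% in either direction). The median log2 fold change was 0.32 over the 33 genes and -0.02 over all genes. Those that rose were Slc2a1, 5 of the 11 genes of upper glycolysis, 5 of the 6 of lower glycolysis, 4 of the 5 of lactate handling and 4 of the 5 of the hypoxia response. None of the 3 listed pyruvate dehydrogenase kinases passed the test, and the 2 genes that fell were Slc2a5 and Ldhb.

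Slc2a1 had 286 and 303 CPM in AD WT and 182 and 178 CPM in WT microglia. It rose by 0.71 ± 0.05 (adjusted p = 3.23e-12), with the groups apart. Slc2a5 moved the other way, to 628 and 622 CPM in AD WT, against 903 and 895 CPM in WT, and fell by 0.53 on the log2 scale (standard error 0.04, adjusted p = 5.01e-11). Slc2a1 is also abundant in brain endothelium, and endothelial markers summed to 901 to 910 CPM in AD WT and 522 to 526 CPM in WT microglia libraries, with all 9 of them higher. Neutrophil markers summed to 441 to 444 CPM in AD WT and 229 to 246 CPM in WT libraries, mural markers to 338 to 344 and 216 to 221 CPM, and microglial markers to 43800 to 44200 and 48100 to 50200 CPM. The part of RNA of other cell types in the changes of this comparison was not tested.

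In upper glycolysis, Tpi1, triose phosphate isomerase, had 228 and 222 CPM in AD WT and 144 and 149 CPM in WT microglia. Aldoa, fructose bisphosphate aldolase, had 675 and 686 CPM in AD WT and 459 and 494 CPM in WT. Both groups of libraries were apart and tight, with log2 fold changes of 0.62 ± 0.05 (Tpi1, adjusted p = 9.06e-11) and 0.51 ± 0.04 (Aldoa, adjusted p = 1.55e-10). Pfkl (0.43 ± 0.05) and Gpi1, glucose phosphate isomerase (0.40 ± 0.06), rose as well. No hexokinase passed. Hk2 had 117 and 117 CPM in AD WT and 115 and 111 CPM in WT, Hk1 had 55.1 and 56.6 against 55.2 and 58.3, and Hk3 had 133 and 133 against 132 and 141.

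Lower glycolysis rose from Gapdh to Pkm. Pkm had the largest change, at 866 and 886 CPM in AD WT and 526 and 554 CPM in WT (0.70 ± 0.04, adjusted p = 6.69e-14). Pgk1, which makes the first ATP of the pathway, had 110 and 114 CPM in AD WT and 73.5 and 80.3 CPM in WT (0.54 ± 0.06, adjusted p = 4.69e-08). Gapdh, often used as a stable reference gene, had 976 and 1005 CPM in AD WT and 698 and 787 CPM in WT (0.42 ± 0.05, adjusted p = 2.58e-06). For all 3 the AD WT libraries lay above both WT libraries. Pgam1, phosphoglycerate mutase, rose by 0.37 ± 0.05 and Eno1, the main enolase, by 0.30 ± 0.04, while Eno2 stayed near the detection limit at 2.15 and 1.93 CPM in AD WT and 1.39 and 2.54 CPM in WT.

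Both lactate dehydrogenase subunits changed, in opposite directions. Ldha had 438 and 469 CPM in AD WT and 343 and 362 CPM in WT (0.36 ± 0.04, adjusted p = 4.11e-07). Ldhb had 301 and 309 CPM in AD WT and 369 and 372 CPM in WT (-0.28 ± 0.04, adjusted p = 1.29e-05). The exporter Slc16a3 rose to 104 and 105 CPM in AD WT, against 56.7 and 69.4 CPM in WT (0.72 ± 0.07, adjusted p = 4.27e-08), and Slc16a1 rose by 0.45 ± 0.07 (adjusted p = 7.58e-06). Slc16a7 also passed (0.28 ± 0.08), but not without WT replicate 2 (0.24) or AD WT replicate 1 (0.24).

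In the hypoxia group, Hif1a reached 536 and 513 CPM in AD WT, against 269 and 259 CPM in WT, a log2 fold change of 0.99 ± 0.05 (adjusted p = 1.52e-15). Egln3, itself a HIF-1 target, had 11.96 and 12.4 CPM in AD WT and 3.32 and 3.53 CPM in WT, the largest rise of the 33 genes (1.83 ± 0.19, adjusted p = 2.18e-08). Neither gene's groups came close to each other. Vegfa did not pass, at 5.28 and 5.98 CPM in AD WT and 3.87 and 5.05 CPM in WT. Bnip3, a mitophagy receptor, Egln1, the main oxygen-sensing hydroxylase, and Pfkfb3, which makes an activator of phosphofructokinase, passed by 0.23, 0.22 and 0.18. Their calls were lost without WT replicate 1 (0.15, 0.14 and 0.13), without AD WT replicate 1 (0.21, 0.24 and 0.16) and without AD WT replicate 2 (0.24, 0.20 and 0.19).

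The same comparison in knockout microglia, AD CKO against CKO, gave 18 genes higher and 3 lower, where 7.73% of all genes rose and 6.92% fell (14.7% in either direction). The median was 0.29 over the 33 genes and -0.00 over all. It shares no library with the comparison above. The number that rose in both was 15, which is 15 of the 19 above and 15 of these 18, and it held all 5 lower glycolytic genes that rose in AD WT. The share of all genes that rose in both was not computed. Aldoa (0.50 ± 0.04), Tpi1 (0.58 ± 0.05), Gapdh (0.40 ± 0.05), Pgk1 (0.54 ± 0.06), Pgam1 (0.36 ± 0.04), Eno1 (0.38 ± 0.04) and Ldha (0.37 ± 0.04) rose in AD CKO by nearly the same amounts as in AD WT, and none of the 7 had an interaction that passed the test.

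Hif1a had 507 and 467 CPM in AD CKO and 313 and 302 CPM in CKO (0.66 ± 0.05, adjusted p = 7.95e-12). Egln3 had 6.67 and 6.36 CPM in AD CKO and 2.89 and 1.99 CPM in CKO (1.41 ± 0.20, adjusted p = 7.28e-06). For both genes each AD CKO library was above both CKO libraries. Slc2a1, at 246 and 260 CPM in AD CKO and 247 and 252 CPM in CKO, did not pass. Endothelial markers summed to 618 to 631 CPM in AD CKO and 572 to 590 CPM in CKO, and microglial markers to 33900 to 35200 and 31700 to 32600 CPM. Other sums moved further, to 2270 to 2320 CPM in AD CKO against 8240 to 8630 CPM in CKO for oligodendrocyte markers, 276 to 290 against 625 to 626 CPM for neutrophil markers, 13.5 to 16.1 against 32.5 to 33.8 CPM for neuronal markers, and 747 to 792 against 397 to 398 CPM for ependymal and choroid markers. Their part in the results of this comparison was not tested. Hk3 (0.31 ± 0.05, adjusted p = 9.65e-05) and Pdk1 (0.25 ± 0.05, adjusted p = 0.00126) rose here. Of the 3 genes that fell only 1 did so without CKO replicate 1 or without AD CKO replicate 2. Slc2a5 (-0.14) was lost without CKO replicate 1 (-0.10) and AD CKO replicate 2 (-0.09), Slc16a1 (-0.26) without CKO replicate 1 (-0.18) and AD CKO replicate 1 (-0.22), and Pdk4 (-1.27) without CKO replicate 2 (-1.07) and AD CKO replicate 2 (-1.08). Vegfa passed as higher (0.54) but not without CKO replicate 1 (0.51) or AD CKO replicate 2 (0.46).

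**Figure D2:**
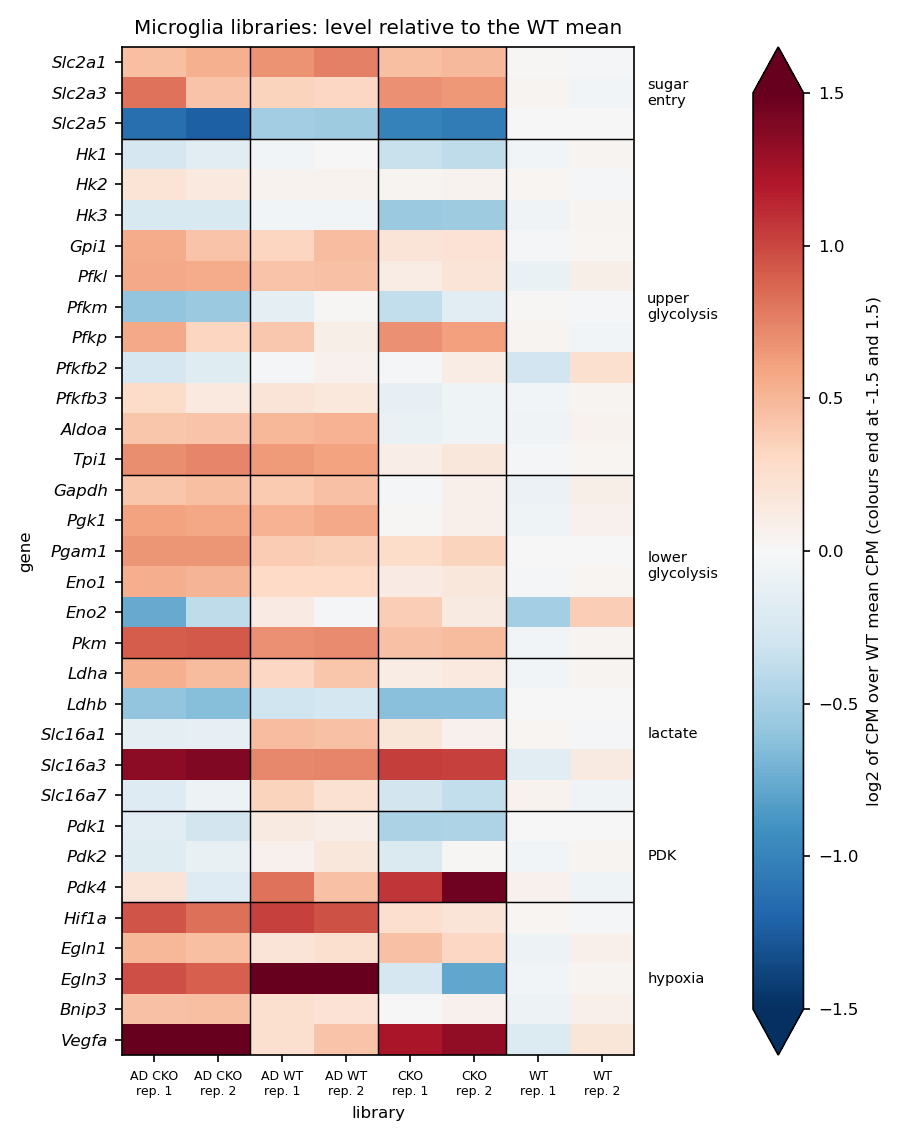
Rows are the 33 genes in order of role, columns the 8 microglia libraries, and colour is the log2 ratio of a library's CPM to the WT mean. Pkm, Tpi1, Pgk1, Gapdh and Hif1a are red in the AD CKO and AD WT libraries, Slc2a5 and Ldhb are blue in all 6 libraries outside WT, and Vegfa is red in the AD CKO and CKO libraries.

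The knockout alone changed a mixed set in microglia. In CKO against WT microglia 15 of the 33 genes rose and 6 fell, where 17.7% of all genes rose and 15.9% fell (33.6% in either direction). The median was 0.13 over the 33 genes and 0.04 over all. All 3 listed sugar transporters and 2 of the listed lactate transporters changed. Slc16a3 had 129 and 128 CPM in CKO and 56.7 and 69.4 CPM in WT (1.03 ± 0.07, adjusted p = 4.11e-11). Slc2a5 had 444 and 435 CPM in CKO and 903 and 895 CPM in WT (-1.03 ± 0.04, adjusted p = 8.57e-18). Slc2a1 had 247 and 252 CPM in CKO and 182 and 178 CPM in WT (0.47 ± 0.05, adjusted p = 4.19e-09). Each gene's CKO libraries lay clear of both WT libraries. Slc2a3 rose too, by 0.67 ± 0.13, and Slc16a7 fell by 0.32 on the log2 scale (standard error 0.08).

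Of the kinases of upper glycolysis, Hk3 had 93.3 and 94.2 CPM in CKO and 132 and 141 CPM in WT (-0.54 ± 0.05, adjusted p = 2.90e-09), and Hk1 fell by 0.36 on the log2 scale (standard error 0.07, adjusted p = 0.00021). Pfkp, a minor phosphofructokinase here, rose by 0.65 ± 0.13. In lower glycolysis Pkm had 730 and 750 CPM in CKO and 526 and 554 CPM in WT (0.45 ± 0.04, adjusted p = 1.41e-10), and Pgam1 rose by 0.31 ± 0.05 (adjusted p = 3.48e-06). Gapdh, at 734 and 782 CPM in CKO and 698 and 787 CPM in WT, Aldoa, at 443 and 457 against 459 and 494, and Pgk1, at 78.1 and 81.1 against 73.5 and 80.3, did not pass. The groups overlapped for Gapdh and Pgk1, and for Aldoa both CKO libraries lay just below both WT libraries.

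Ldhb had 240 and 240 CPM in CKO and 369 and 372 CPM in WT (-0.63 ± 0.04, adjusted p = 2.33e-12). Pdk1, which HIF-1 is known to induce, had 106 and 107 CPM in CKO and 148 and 146 CPM in WT (-0.47 ± 0.05, adjusted p = 3.00e-08). Vegfa had 10.5 and 11.2 CPM in CKO and 3.87 and 5.05 CPM in WT (1.28 ± 0.16, adjusted p = 3.77e-07). The groups were apart in each. Egln1 rose by 0.38 ± 0.07 and Hif1a by 0.22 ± 0.05, while Egln3, at 2.89 and 1.99 CPM in CKO and 3.32 and 3.53 CPM in WT, did not pass.

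Another 5 genes, Gpi1 (0.21), Pfkl (0.15), Tpi1 (0.13), Eno1 (0.15) and Ldha (0.13), passed as higher by small amounts that hung on single libraries. Without WT replicate 1 their values were 0.18, 0.06, 0.10, 0.12 and 0.09, and no call held. Without CKO replicate 2 the calls of Pfkl (0.11), Tpi1 (0.10), Eno1 (0.12) and Ldha (0.11) were lost, and without CKO replicate 1 or AD CKO replicate 1 those of Pfkl (0.17 and 0.13), Tpi1 (0.14 and 0.11) and Ldha (0.12 and 0.10). Leaving out either AD WT library also ended the call of Tpi1 (0.13 in each case). Pdk4, at 2.40 and 3.14 CPM in CKO and 1.19 and 1.09 CPM in WT, passed (1.27 ± 0.34), but not without CKO replicate 2 (1.07). Other marker sums moved beside these results. In CKO and WT microglia libraries, microglial markers summed to 31700 to 32600 and 48100 to 50200 CPM, oligodendrocyte markers to 8240 to 8630 and 3150 to 3290 CPM, neutrophil markers to 625 to 626 and 229 to 246 CPM, and border macrophage markers to 425 to 428 and 238 to 243 CPM. Their part in the results was not tested.

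Within the AD model, the knockout gave 8 genes higher and 11 lower in AD CKO against AD WT microglia, where 17.0% of all genes rose and 15.0% fell (32.0% in either direction). Only 5 were higher without AD CKO replicate 1. The median was 0.02 over the 33 genes and -0.00 over all. This comparison and that of CKO with WT share no library, and 7 genes were higher in both (7 of 15 and 7 of 8) and 6 lower in both (6 of 6 and 6 of 11). Shares of all genes called in both were not computed.

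Slc16a3 had 160 and 165 CPM in AD CKO and 104 and 105 CPM in AD WT (0.64 ± 0.07, adjusted p = 9.16e-08). Vegfa had 14.9 and 16.6 CPM in AD CKO and 5.28 and 5.98 CPM in AD WT (1.48 ± 0.16, adjusted p = 2.47e-08). Pkm had 1013 and 1019 CPM in AD CKO and 866 and 886 CPM in AD WT (0.21 ± 0.04, adjusted p = 6.32e-05). These were higher in both AD CKO libraries, as were Pgam1 (0.29 ± 0.04) and Eno1 (0.22 ± 0.04).

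Slc2a5 had 411 and 386 CPM in AD CKO and 628 and 622 CPM in AD WT (-0.65 ± 0.04, adjusted p = 4.32e-13). Ldhb had 246 and 237 CPM in AD CKO and 301 and 309 CPM in AD WT (-0.34 ± 0.04, adjusted p = 5.32e-07). Egln3 had 6.67 and 6.36 CPM in AD CKO and 11.96 and 12.4 CPM in AD WT (-0.90 ± 0.18, adjusted p = 0.000227). Both AD CKO libraries lay below both AD WT libraries in each. Pdk1 fell by 0.34 on the log2 scale (standard error 0.05), Slc16a7 by 0.42 (standard error 0.08), Slc16a1 by 0.58 (standard error 0.07) and Slc2a1 by 0.22 (standard error 0.05). Endothelial markers summed to 618 to 631 CPM in AD CKO and 901 to 910 CPM in AD WT, and microglial markers to 33900 to 35200 and 43800 to 44200 CPM. Border macrophage markers summed to 309 to 313 CPM in AD CKO and 198 to 199 CPM in AD WT, neutrophil markers to 276 to 290 and 441 to 444 CPM, and oligodendrocyte markers to 2270 to 2320 and 3760 CPM. Their part in these rises and falls was not tested.

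The other 7 calls hung on single libraries. Without AD WT replicate 1, those of Hk1 (-0.19, then -0.20), Hk3 (-0.19, then -0.19), Ldha (0.14, then 0.09) and Egln1 (0.25, then 0.23) were lost. Without AD WT replicate 2, those of Hk1 (-0.17), Pfkm (-0.52, then -0.44), Pdk2 (-0.27, then -0.21) and Bnip3 (0.22, then 0.21) were lost. Without AD CKO replicate 1, Hk1 (-0.17), Ldha (0.09), Pdk2 (-0.25), Egln1 (0.22) and Bnip3 (0.21) did not pass, and without AD CKO replicate 2, Hk1 (-0.22) and Pdk2 (-0.30) did not.

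The effect of the knockout differed between the 2 backgrounds for 9 genes, where 5.53% of all genes had a positive interaction and 7.19% a negative one (12.7% in either direction). The interaction is the log2 fold change of AD CKO over AD WT minus that of CKO over WT. Slc2a1 rose with the knockout outside the AD model and fell within it (interaction -0.69 ± 0.07, adjusted p = 1.32e-08). Slc16a1 had 64.4 and 59.4 CPM in CKO and 57.7 and 55.7 CPM in WT, which did not pass, and 51.2 and 52.2 CPM in AD CKO against 78.0 and 77.0 CPM in AD WT (interaction -0.71 ± 0.09, adjusted p = 3.54e-06). The fall of Slc2a5 (0.38 ± 0.06), of Hk3 (0.35 ± 0.07) and of Ldhb (0.29 ± 0.06) was smaller within the AD model, and so was the rise of Pkm (-0.24 ± 0.05). Hif1a had an interaction of -0.33 ± 0.06 (adjusted p = 0.000601). That of Slc16a3 (-0.39) was lost without WT replicate 1 (-0.24), and that of Pdk4 (-1.91) without CKO replicate 2 (-1.71) or AD WT replicate 1 (-1.71).

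**Figure D3:**
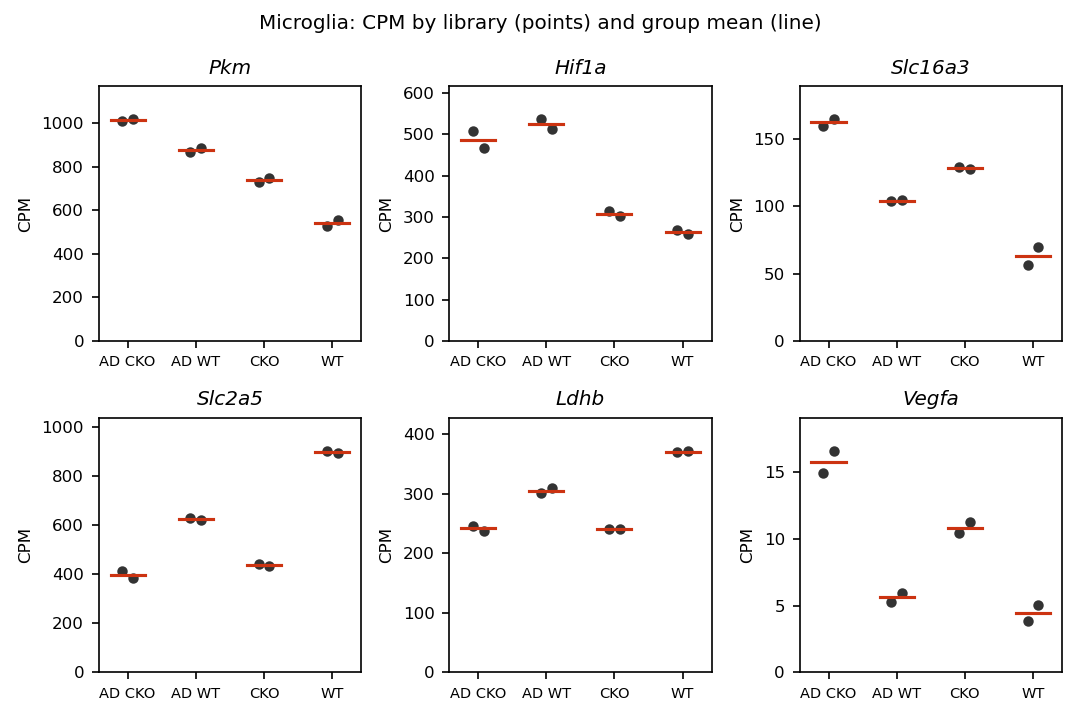
Points are the 2 microglia libraries of each group and lines their means, in CPM, for 6 genes. Pkm and Slc16a3 are lowest in WT and highest in AD CKO, Hif1a is high in AD CKO and AD WT, Vegfa is high in AD CKO and CKO, Slc2a5 and Ldhb are highest in WT.

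Since Ldha and Ldhb moved apart, their ratio per kilobase set the microglia groups in order. It was 1.49 and 1.48 in AD CKO, 1.05 and 1.09 in AD WT, 1.14 and 1.17 in CKO and 0.67 and 0.70 in WT libraries. No 2 groups overlapped. The share of Slc16a3 among the monocarboxylate transporters was 71.0 ± 0.08% in AD CKO, 51.8 ± 0.59% in AD WT, 63.3 ± 1.12% in CKO and 46.3 ± 4.32% in WT microglia (SD, n = 2 each). Slc2a1 made up 37.3 ± 2.12% of the listed sugar transporters in AD CKO, 31.0 ± 1.01% in AD WT, 34.7 ± 0.66% in CKO and 16.1 ± 0.14% in WT microglia. The makeup of the phosphofructokinases varied less, with Pfkl at 89.7 ± 0.48% in AD CKO, 87.7 ± 0.37% in AD WT, 84.7 ± 0.17% in CKO and 84.6 ± 1.47% in WT.

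**Figure D4:**
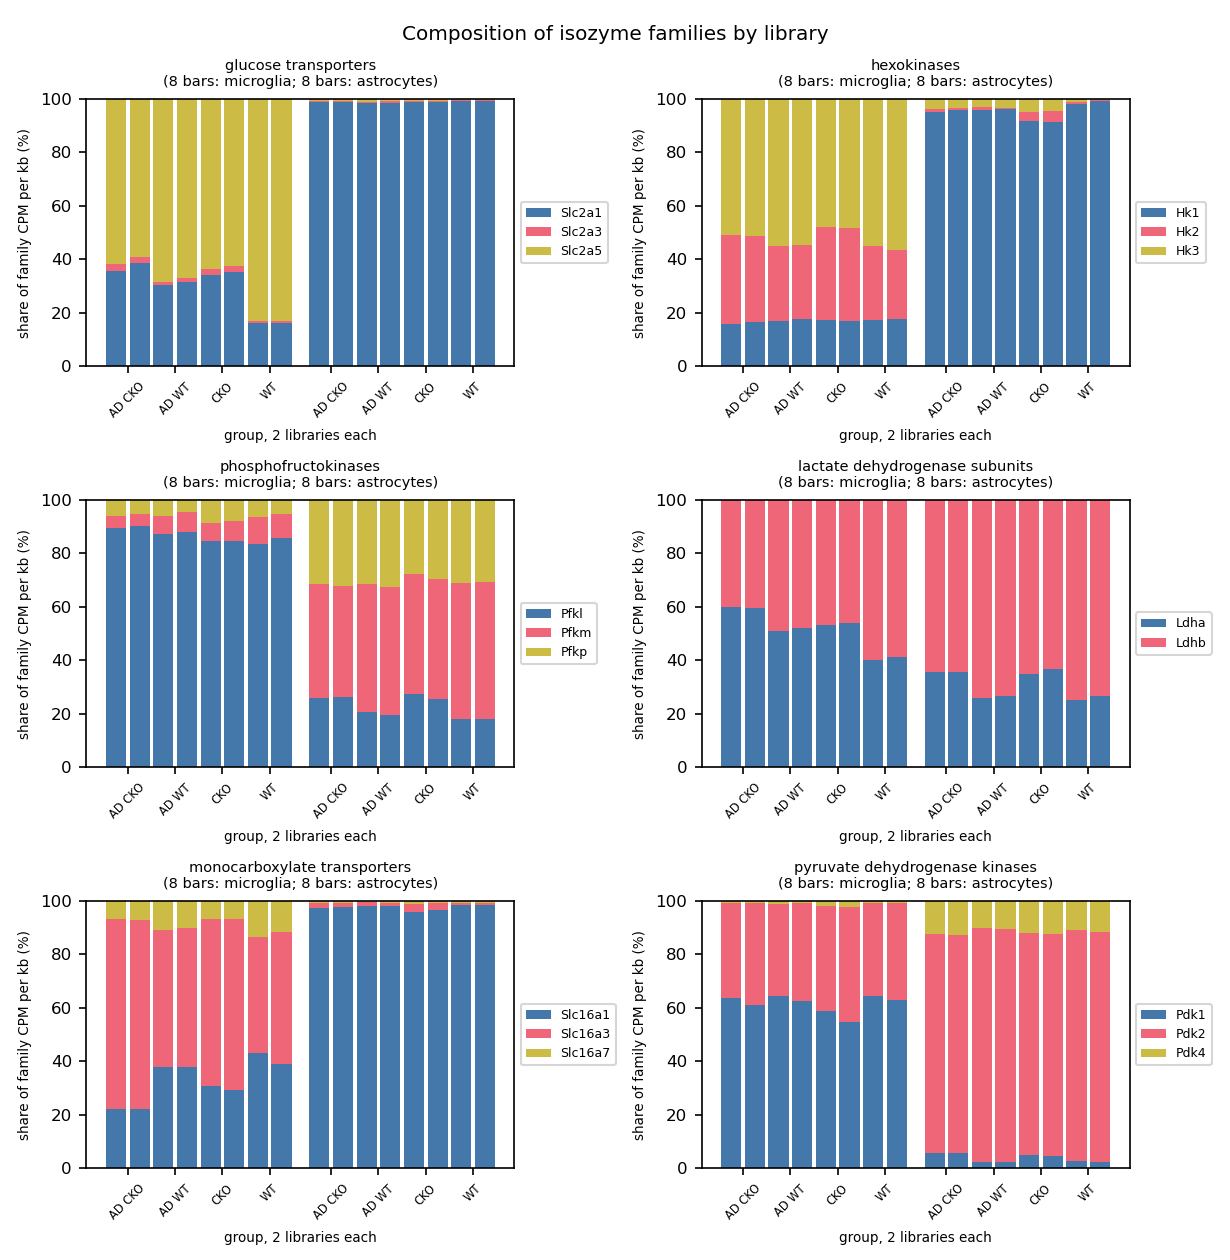
Each bar is 1 library, split by the share of each isozyme in the CPM per kilobase summed over the listed members of its family (percent). Microglia are on the left and astrocytes on the right of each panel. In microglia, Slc2a1, Ldha and Slc16a3 take larger shares outside WT, and in astrocytes Slc2a1, Hk1, Ldhb, Slc16a1 and Pdk2 hold most of their families in every group.

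Astrocytes, in which Rack1 was not targeted, also differed between groups. In CKO against WT astrocytes 8 of the 33 genes rose and 20 fell, where 31.6% of all 20116 genes tested rose and 32.4% fell (64.0% in either direction). The median was -0.23 over the 33 genes and 0.01 over all. The 20 held 9 of the 11 genes of upper glycolysis, 4 of the 6 of lower glycolysis and all 3 listed pyruvate dehydrogenase kinases. Astrocyte markers summed to 10100 to 10300 CPM in CKO and 22800 to 23100 CPM in WT astrocyte libraries, and endothelial markers to 6990 to 7100 and 2450 to 2460 CPM. Ependymal and choroid markers summed to 9520 to 10900 CPM in CKO and 4420 to 4760 CPM in WT, and mural markers to 1910 to 1920 and 829 to 860 CPM. Their part in the results was not tested. Rack1 averaged 54.0 ± 1.03 CPM in AD CKO and 74.8 ± 2.59 CPM in AD WT astrocytes, and 99.1 ± 4.73 CPM in CKO and 59.5 ± 2.25 CPM in WT astrocytes (SD, n = 2 each).

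Vegfa had 131 and 135 CPM in CKO and 392 and 416 CPM in WT astrocytes, the largest fall of the 33 (-1.60 ± 0.05, adjusted p = 8.31e-18). Hk1 had 64.2 and 63.7 CPM in CKO and 144 and 151 CPM in WT (-1.21 ± 0.05, adjusted p = 5.00e-15). Pdk2 had 158 and 165 CPM in CKO and 358 and 364 CPM in WT (-1.16 ± 0.05, adjusted p = 6.88e-16). All CKO libraries were well below the WT libraries. Pfkm (-1.04 ± 0.05), Pfkp (-0.96 ± 0.05), Pdk4 (-1.01 ± 0.07), Hif1a (-0.68 ± 0.06), Gpi1 (-0.65 ± 0.04), Ldhb (-0.57 ± 0.05), Eno2 (-0.55 ± 0.13) and Eno1 (-0.41 ± 0.04) fell as well. Aldoa (-0.30 ± 0.04), Pfkfb3 (-0.29 ± 0.07), Pfkl (-0.29 ± 0.05) and Pgam1 (-0.23 ± 0.04) fell less.

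The genes that rose were in part those that WT microglia express far above WT astrocytes. Slc16a3 had 9.51 and 7.46 CPM in CKO and 2.12 and 1.82 CPM in WT astrocytes (2.11 ± 0.19, adjusted p = 2.29e-09). Hk3 had 2.55 and 2.47 CPM in CKO and 1.11 and 0.53 CPM in WT (1.63 ± 0.30), Hk2 had 3.20 and 3.46 against 1.57 and 0.87 (1.46 ± 0.37), and Slc2a5 had 8.89 and 9.29 against 4.35 and 4.27 (1.08 ± 0.14). The CKO libraries were above the WT libraries for all 4. Microglial markers summed to 1900 to 1950 CPM in CKO and 517 to 522 CPM in WT astrocyte libraries, and their part in these rises was not tested. Slc2a1 had 1075 and 1094 CPM in CKO and 916 and 874 CPM in WT (0.28 ± 0.04, adjusted p = 1.47e-06), beside the higher endothelial sum, and Bnip3 rose by 0.35 ± 0.05.

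Without WT replicate 2, the calls of Slc2a3 (0.59, then 0.38), Ldha (0.10, then 0.07), Pfkfb2 (-0.35, then -0.22) and Slc16a1 (-0.13, then -0.10) were lost. Without WT replicate 1, those of Tpi1 (-0.16, then -0.11), Gapdh (-0.10, then -0.07) and Pdk1 (-0.23, then -0.20) were lost. Without CKO replicate 1, Slc2a3 (0.42), Pfkfb2 (-0.29), Slc16a1 (-0.09) and Gapdh (-0.10) did not pass, and without CKO replicate 2, Ldha (0.08), Pdk1 (-0.16) and Gapdh (-0.11) did not. Ldha was also lost without AD CKO replicate 1 (0.10) or AD CKO replicate 2 (0.10). Pkm, at 854 and 872 CPM in CKO and 926 and 894 CPM in WT, Pgk1, Egln1, Egln3 and Slc16a7 did not pass.

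**Figure D5:**
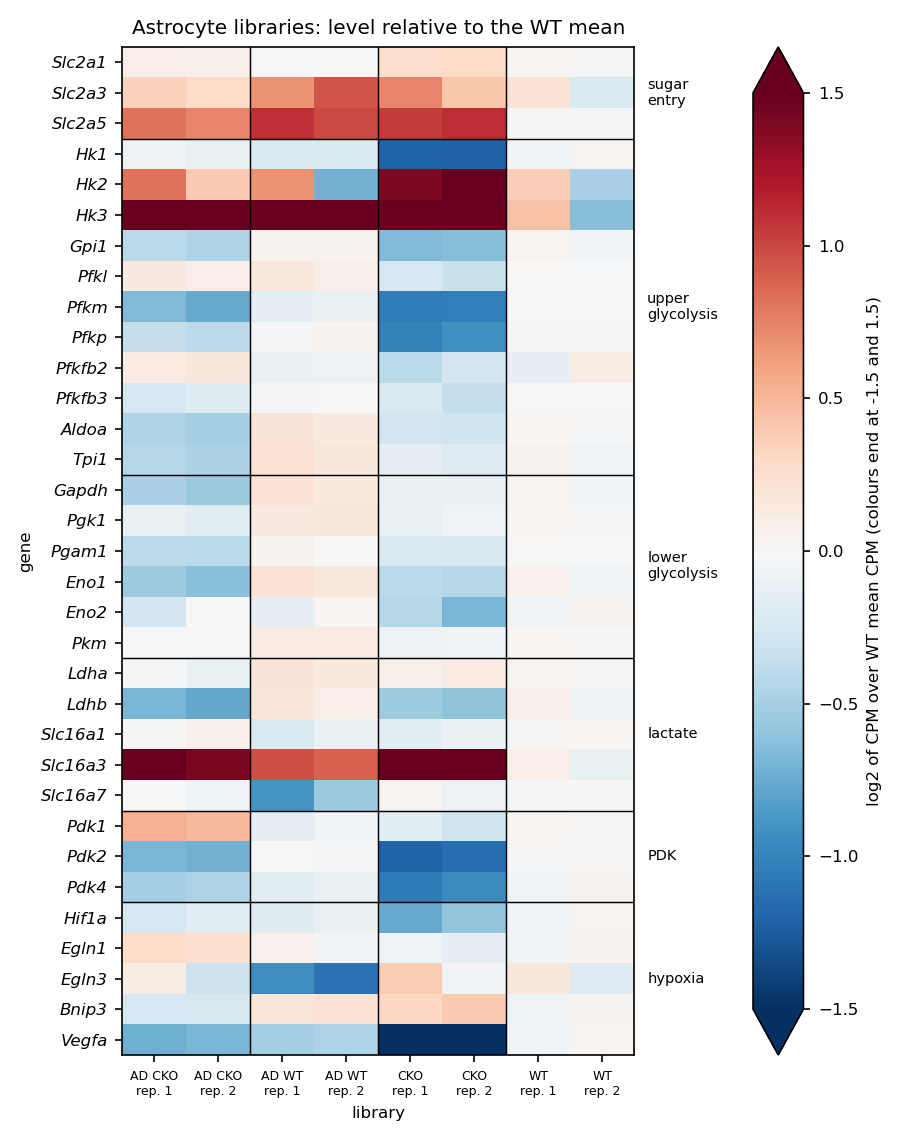
Rows are the 33 genes in order of role, columns the 8 astrocyte libraries, and colour is the log2 ratio of a library's CPM to the WT mean. The CKO libraries are blue for Hk1, Pfkm, Pfkp, Pdk2, Pdk4 and Vegfa, the AD CKO libraries are blue for Aldoa, Tpi1, Gapdh, Eno1 and Ldhb, and Slc2a5, Hk3 and Slc16a3 are red in all 6 libraries outside WT.

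In AD WT against WT astrocytes 14 genes rose and 7 fell, where 20.0% of all genes rose and 18.0% fell (38.0% in either direction), and the median was 0.03 over both the 33 genes and all genes. Without WT replicate 2 the counts were 6 and 4, and without AD WT replicate 1 only 4 genes fell. Changes that held without any single library were few. Gapdh had 2305 and 2206 CPM in AD WT and 2038 and 1936 CPM in WT (0.18 ± 0.04, adjusted p = 0.000889). Vegfa had 286 and 294 CPM in AD WT and 392 and 416 CPM in WT (-0.48 ± 0.05, adjusted p = 3.70e-08). Egln3 had 2.02 and 1.79 CPM in AD WT and 4.35 and 3.37 CPM in WT (-1.01 ± 0.24, adjusted p = 0.00185). The libraries of the 2 groups were apart in each. Hk1 fell by 0.21 on the log2 scale (standard error 0.05) and Slc16a7 by 0.71 (standard error 0.16). Hk3 (1.97 ± 0.30), Slc2a5 (1.05 ± 0.14), Slc16a3 (0.93 ± 0.21) and Slc2a3 (0.82 ± 0.18) rose, and microglial markers summed to 1130 CPM in AD WT and 517 to 522 CPM in WT astrocyte libraries. Oligodendrocyte markers summed to 6960 to 7160 CPM in AD WT and 14600 to 14800 CPM in WT, ependymal and choroid markers to 8530 to 9680 and 4420 to 4760 CPM, mural markers to 1210 to 1220 and 829 to 860 CPM, and erythroid markers to 417 to 508 and 140 to 154 CPM. Their part in the results of this comparison was not tested.

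The remaining 12 calls of that comparison were between -0.16 and 0.20 and each was lost without at least 1 library. Without WT replicate 2, those of Aldoa (0.13), Tpi1 (0.13), Pgk1 (0.11), Eno1 (0.11), Pkm (0.09), Ldha (0.13), Ldhb (0.06), Pfkl (0.11), Pfkm (-0.14), Slc16a1 (-0.14) and Hif1a (-0.12) were lost. Without WT replicate 1, Bnip3 (0.14), Pfkl (0.13), Pfkm (-0.14) and Hif1a (-0.19) did not pass. Without AD WT replicate 1, Pkm (0.11), Ldhb (0.10), Pfkl (0.09), Pfkm (-0.12), Slc16a1 (-0.11) and Hif1a (-0.12) did not, and without AD WT replicate 2, Pgk1 (0.12), Pkm (0.12) and Pfkl (0.15) did not. Pfkl was also lost without CKO replicate 1 (0.12), AD CKO replicate 1 (0.12) or AD CKO replicate 2 (0.12).

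In AD CKO against AD WT astrocytes 7 genes rose and 18 fell, where 25.1% of all genes rose and 27.0% fell (52.1% in either direction). The median was -0.23 over the 33 genes and -0.03 over all. Of upper glycolysis 6 of 11 genes fell, and of lower glycolysis 5 of 6. Eno1 had 1546 and 1453 CPM in AD CKO and 2601 and 2513 CPM in AD WT (-0.77 ± 0.04, adjusted p = 2.52e-12). Gapdh had 1423 and 1347 CPM in AD CKO and 2305 and 2206 CPM in AD WT (-0.70 ± 0.04, adjusted p = 2.27e-12). Ldhb had 602 and 566 CPM in AD CKO and 1098 and 1036 CPM in AD WT (-0.87 ± 0.05, adjusted p = 9.30e-11). No AD CKO library reached an AD WT library in any of the 3. Aldoa (-0.65 ± 0.04), Tpi1 (-0.65 ± 0.04), Pdk2 (-0.72 ± 0.04), Pfkm (-0.58 ± 0.05), Gpi1 (-0.48 ± 0.04), Bnip3 (-0.45 ± 0.05), Pgam1 (-0.43 ± 0.04), Pfkp (-0.39 ± 0.05), Pdk4 (-0.35 ± 0.06), Pgk1 (-0.28 ± 0.04), Ldha (-0.24 ± 0.04) and Vegfa (-0.23 ± 0.05) fell too.

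Among those that rose, Pdk1 had 35.98 and 34.6 CPM in AD CKO and 22.6 and 24.1 CPM in AD WT (0.60 ± 0.08, adjusted p = 1.68e-06). Slc16a7 had 6.97 and 6.84 CPM in AD CKO and 3.81 and 4.76 CPM in AD WT (0.69 ± 0.16, adjusted p = 0.00074). Egln3 had 4.18 and 3.12 CPM in AD CKO and 2.02 and 1.79 CPM in AD WT (0.93 ± 0.23, adjusted p = 0.00194). The groups were apart for each, and Egln1 (0.24 ± 0.06) and Slc16a1 (0.20 ± 0.05) rose as well. Astrocyte markers summed to 14000 to 14100 CPM in AD CKO and 21900 to 22600 CPM in AD WT astrocyte libraries, and oligodendrocyte markers to 19100 to 19200 and 6960 to 7160 CPM. Ependymal and choroid markers summed to 5740 to 6160 CPM in AD CKO and 8530 to 9680 CPM in AD WT, and erythroid markers to 94.5 to 104 and 417 to 508 CPM. Their part in the results was not tested. Slc16a3 (0.61) was lost without AD CKO replicate 1 (0.50), Pkm (-0.13) without AD CKO replicate 1 (-0.12) or 2 (-0.12), Slc2a3 (-0.49) without AD WT replicate 2 (-0.34), AD CKO replicate 1 (-0.50) or AD CKO replicate 2 (-0.46). Pfkfb2 (0.24) was lost whichever library of the pair of groups was left out (0.24 and 0.26 without AD WT replicates 1 and 2, 0.28 and 0.22 without AD CKO replicates 1 and 2), and Pfkfb3 (-0.21) without either AD WT library (-0.21 for replicate 1 and -0.19 for replicate 2) or without AD CKO replicate 1 (-0.15).

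The comparisons CKO with WT and AD CKO with AD WT share no astrocyte library. The genes that fell in both numbered 13, which is 13 of 20 and 13 of 18, and Slc16a3 was the 1 gene that rose in both, of 8 and of 7. Another 6 genes were called in opposite directions. Slc2a3, Ldha and Bnip3 rose in CKO against WT and fell in AD CKO against AD WT, and Pfkfb2, Slc16a1 and Pdk1 did the reverse. How many of all genes were called in both comparisons was not computed. In all, 29 of the 33 genes had an interaction that passed, 15 positive and 14 negative, where 29.5% of all genes were positive and 28.3% negative (57.8% in either direction). The fall of Vegfa (interaction 1.37 ± 0.07, adjusted p = 1.06e-13) was larger outside the AD model. Hk1 fell only outside the AD model (interaction 1.33 ± 0.07, adjusted p = 9.16e-13). Within the AD model Hk1 did not pass, at 140 and 137 CPM in AD CKO and 128 and 128 CPM in AD WT. The fall of Gapdh (-0.60 ± 0.06), Tpi1 (-0.48 ± 0.06), Eno1 (-0.36 ± 0.06) and Aldoa (-0.35 ± 0.05) was larger within the AD model.

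In AD CKO against CKO astrocytes 15 genes rose and 11 fell, where 31.4% of all genes rose and 28.4% fell (59.8% in either direction), with medians of 0.07 over the 33 genes and -0.01 over all. Without AD CKO replicate 2 only 6 fell. This comparison shares no library with AD WT against WT astrocytes, and 2 genes rose in both (Hk3 and Pfkl), 0 fell in both and 13 were called in opposite directions. Of these 13, Aldoa, Tpi1, Gapdh, Eno1, Ldha, Ldhb, Slc16a3 and Bnip3 fell here and rose in AD WT against WT, and Hk1, Pfkm, Slc16a1, Hif1a and Vegfa rose here and fell there. How many of all genes were called in the same or in opposite directions was not computed. Without AD CKO replicate 2 the calls of Eno1 (-0.13), Ldha (-0.13), Ldhb (-0.10), Slc16a1 (0.15) and Slc16a3 (-0.45) were lost here, and without CKO replicate 1 those of Ldhb (-0.11), Slc16a1 (0.14) and Slc16a3 (-0.38). That of Hk3 (0.59) was lost without any 1 of the 4 libraries (0.49 to 0.69). Hk1 had 140 and 137 CPM in AD CKO and 64.2 and 63.7 CPM in CKO (1.11 ± 0.05, adjusted p = 6.16e-14). Vegfa had 243 and 250 CPM in AD CKO and 131 and 135 CPM in CKO (0.90 ± 0.05, adjusted p = 4.04e-13). Gapdh had 1423 and 1347 CPM in AD CKO and 1842 and 1858 CPM in CKO (-0.42 ± 0.04, adjusted p = 5.37e-09). The groups were apart in each. All 3 listed pyruvate dehydrogenase kinases rose, Pdk1 by 0.74 ± 0.08, Pdk4 by 0.53 ± 0.07 and Pdk2 by 0.46 ± 0.05. Between AD CKO and CKO astrocyte libraries the astrocyte marker sums were 14000 to 14100 and 10100 to 10300 CPM, and the endothelial sums 3350 to 3370 and 6990 to 7100 CPM. The ependymal and choroid sums were 5740 to 6160 and 9520 to 10900 CPM, and the microglial sums 1190 to 1210 and 1900 to 1950 CPM. The part of these cell types was not tested.

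The Ldha to Ldhb ratio in astrocytes was higher with the knockout. It was 0.55 and 0.55 in AD CKO, 0.35 and 0.36 in AD WT, 0.54 and 0.58 in CKO and 0.34 and 0.36 in WT libraries. The 4 libraries with the knockout lay above the 4 without it, and the ranges of AD CKO and CKO overlapped, as did those of AD WT and WT. In both cell types and both backgrounds Ldhb fell with the knockout.

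The direct test gave the genes whose log2 fold change differed between the microglia and the astrocyte libraries. Hk3 and Slc2a5 were low in astrocyte libraries, where microglial markers summed to 517 to 522 CPM in WT, 1130 CPM in AD WT and 1900 to 1950 CPM in CKO. The part of RNA of other cell types in these differences was not tested. For AD WT against WT, 16 of the 33 genes had a higher log2 fold change in microglia and 3 a lower one, where 12.1% and 11.5% of all 20589 genes did (23.6% in either direction). Egln3 (2.84 ± 0.33), Hif1a (1.13 ± 0.08), Slc16a7 (0.99 ± 0.16), Vegfa (0.81 ± 0.14), Pdk4 (0.77 ± 0.24), Slc2a1 (0.70 ± 0.06), Slc16a1 (0.61 ± 0.08) and Pkm (0.57 ± 0.06) led the 16, and the 3 were Hk3 (-2.02 ± 0.22), Slc2a5 (-1.58 ± 0.10) and Ldhb (-0.43 ± 0.07). The call of Pdk4 was lost without microglia WT replicate 2 (0.71), microglia AD WT replicate 1 (0.57) or astrocyte WT replicate 2 (0.71). Hif1a and Egln3 rose in AD WT microglia, and Egln3 fell in AD WT astrocytes. The joint fit put the difference at an adjusted p of 7.91e-12 for Hif1a and 1.30e-07 for Egln3.

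For CKO against WT, 18 genes had a higher log2 fold change in microglia and 6 a lower one, where 24.7% and 22.2% of all genes did (46.9% in either direction). Vegfa (2.85 ± 0.12, adjusted p = 2.95e-17), Pdk4 (2.25 ± 0.22), Pfkp (1.58 ± 0.11) and Pdk2 (1.03 ± 0.09) were highest, and Hk3 (-2.21 ± 0.23) and Slc2a5 (-2.14 ± 0.10) lowest. For AD CKO against AD WT, 15 genes were higher and 9 lower, where 15.7% and 19.3% of all genes were (35.0% in either direction). Vegfa (1.68 ± 0.12), Eno1 (0.95 ± 0.06), Tpi1 (0.70 ± 0.07), Pgam1 (0.69 ± 0.06) and Gapdh (0.68 ± 0.07) were among the 15, and Egln3 (-1.87 ± 0.32), Slc16a7 (-1.15 ± 0.15), Pdk1 (-0.98 ± 0.09) and Slc16a1 (-0.83 ± 0.08) among the 9.

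A further 97 genes of the same pathways, covering other transporters and isozymes, pyruvate entry, the pentose phosphate pathway, glycogen and other HIF-1 targets, were listed, and 96 were in the data, 89 of them tested in microglia and 91 in astrocytes. In microglia 16 of the 89 rose and 11 fell in AD WT against WT, where 10.7% of all genes rose and 8.62% fell. In AD CKO against CKO 19 rose and 5 fell (7.73% and 6.92% of all genes), in CKO against WT 21 and 16 (17.7% and 15.9%), and in AD CKO against AD WT 19 and 13 (17.0% and 15.0%). Their medians lay between 0.01 and 0.03. Slc2a6, the lysosomal sugar transporter GLUT6, averaged 57.8 ± 6.01 CPM in AD CKO, 23.4 ± 1.29 CPM in AD WT, 44.5 ± 1.89 CPM in CKO and 8.65 ± 0.98 CPM in WT microglia. It rose in CKO against WT (2.36 ± 0.10), in AD WT against WT (1.44 ± 0.11) and in AD CKO against AD WT (1.30 ± 0.09). Lox, the collagen crosslinker lysyl oxidase and a HIF-1 target, averaged 60.1 ± 4.01 CPM in AD CKO, 34.3 ± 1.91 CPM in AD WT, 31.8 ± 4.18 CPM in CKO and 10.4 ± 0.70 CPM in WT (CKO against WT 1.61 ± 0.10, AD WT against WT 1.72 ± 0.10).

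Epas1, the HIF-2 subunit that is abundant in endothelium, rose in AD WT against WT microglia (0.86 ± 0.06) and fell in AD CKO against AD WT (-0.96 ± 0.06), and Bhlhe40, a HIF-inducible repressor, did the same (1.36 ± 0.09 and -1.17 ± 0.09). Endothelial sums moved in the same direction in those libraries, at 618 to 631 CPM in AD CKO, 901 to 910 CPM in AD WT and 522 to 526 CPM in WT, and their part was not tested. Of glycogen genes, Pygl, a glycogen phosphorylase, rose in CKO against WT (1.04 ± 0.10) and AD CKO against AD WT (0.54 ± 0.10), and Gys1, glycogen synthase, likewise (0.87 ± 0.11 and 0.59 ± 0.11).

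In astrocytes 25 of the 91 rose and 46 fell in CKO against WT, where 31.6% of all genes rose and 32.4% fell. In AD CKO against AD WT 11 rose and 45 fell, where 25.1% and 27.0% of all genes did. Of the 19 glycogen genes 14 fell in CKO against WT (32.4% of all genes fell), with a median of -0.90 against 0.01 over all genes. Pygb, the brain glycogen phosphorylase, averaged 210 ± 2.35 CPM in CKO and 634 ± 26.4 CPM in WT (-1.60 ± 0.04), and Gys1 averaged 20.9 ± 2.24 CPM in CKO and 58.4 ± 1.23 CPM in WT (-1.48 ± 0.07). Pcx, pyruvate carboxylase, which refills the citric acid cycle, fell by 1.59 on the log2 scale (standard error 0.06), and Aldoc, the astrocyte aldolase, by 1.09 (standard error 0.03). In AD CKO against AD WT, 9 of the 12 genes of pyruvate entry fell (27.0% of all genes fell), among them Mpc1, a subunit of the mitochondrial pyruvate carrier (-0.58 ± 0.04), and Pdhb, a subunit of pyruvate dehydrogenase (-0.57 ± 0.05). Aldoc fell there as well (-0.91 ± 0.03). Astrocyte markers, of which Aldoc is 1, were lower in the same libraries, as given above.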

How the data were processed

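RNA of microglia and astrocytes was sequenced in 16 libraries with SMART-Seq v4 cDNA, per the labels' protocols. Reads were cleaned with fastp, aligned to mm10 with HISAT2 and processed with StringTie, per the submitters' processing notes, which give no role or order. The counting step, its use of strand and the annotation release are not given in the sources used here. The deposited values are estimated counts per gene, part of them not whole, and were rounded to whole numbers. All value columns were matched to samples (0 unmatched).

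Genes were tested with edgeR 4.0.16 (R 4.3.3; filterByExpr, TMM, robust quasi-likelihood fit) within each cell type over 4 groups, and over all 16 libraries for comparisons between cell types. p-values were adjusted by Benjamini-Hochberg over all genes tested. The tests were also run on counts simulated from the mean levels and spread fitted to these data. CPM used TMM-scaled totals, set within each cell type or, between cell types, over all 16 libraries, so a library's CPM differs between these scales. Levels per kilobase used the longest basic protein-coding transcript of GENCODE M21. Alternatives were RLE size factors, DESeq2 1.42.0, no filter, a mean of at least 1 CPM, a replicate block and leaving out each library. The 33 genes and the gene lists were chosen with earlier results of these data known. All 33 could be named, and from each list of other pathway genes up to 4 called genes with the smallest p in a comparison.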

Additional observations from a re-analysis of the deposited data

Results flagged for a closer look

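Each result here was picked out because the effect of a comparison differed between 2 backgrounds or 2 cell types by a test of the difference itself (edgeR quasi-likelihood, adjusted by Benjamini-Hochberg over all genes). Values in parentheses are log2 differences. Marker sums of other cell types differed between the groups as given with the comparisons, and their part in these differences was not tested.

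In microglia, the log2 fold change of AD CKO over AD WT differed from that of CKO over WT for 9 genes. It was higher within the AD model for Slc2a5 (0.38), Hk3 (0.35) and Ldhb (0.29). It was lower within the AD model for Slc2a1 (-0.69), Pkm (-0.24), Slc16a1 (-0.71), Slc16a3 (-0.39), Pdk4 (-1.91) and Hif1a (-0.33).

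In astrocytes the same difference passed for 29 genes. Higher within the AD model were Hk1 (1.33), Gpi1 (0.17), Pfkl (0.28), Pfkm (0.46), Pfkp (0.57), Pfkfb2 (0.58), Eno2 (0.46), Slc16a1 (0.33), Slc16a7 (0.71), Pdk1 (0.82), Pdk2 (0.44), Pdk4 (0.66), Hif1a (0.60), Egln1 (0.34) and Vegfa (1.37). Lower within the AD model were Slc2a1 (-0.19), Slc2a3 (-1.08), Slc2a5 (-1.35), Hk3 (-1.39), Aldoa (-0.35), Tpi1 (-0.48), Gapdh (-0.60), Pgk1 (-0.20), Pgam1 (-0.20), Eno1 (-0.36), Ldha (-0.34), Ldhb (-0.30), Slc16a3 (-1.5) and Bnip3 (-0.80).

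The log2 fold change of AD WT over WT differed between microglia and astrocytes for 19 genes. Microglia had the higher value for Slc2a1 (0.70), Gpi1 (0.34), Pfkl (0.30), Aldoa (0.34), Tpi1 (0.42), Gapdh (0.23), Pgk1 (0.39), Pgam1 (0.33), Pkm (0.57), Ldha (0.19), Slc16a1 (0.61), Slc16a7 (0.99), Pdk4 (0.77), Hif1a (1.13), Egln3 (2.84) and Vegfa (0.81). Astrocytes had the higher value for Slc2a5 (-1.58), Hk3 (-2.02) and Ldhb (-0.43), written as microglia minus astrocytes.

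For CKO over WT the difference between the cell types passed for 24 genes. The value in microglia exceeded that in astrocytes for Slc2a1 (0.16), Hk1 (0.82), Gpi1 (0.83), Pfkl (0.41), Pfkm (0.74), Pfkp (1.58), Aldoa (0.18), Tpi1 (0.26), Pgam1 (0.50), Eno1 (0.53), Eno2 (0.78), Pkm (0.50), Slc16a1 (0.22), Pdk2 (1.03), Pdk4 (2.25), Hif1a (0.86), Egln1 (0.44) and Vegfa (2.85). The value in microglia was below that in astrocytes for Slc2a5 (-2.14), Hk2 (-1.46), Hk3 (-2.21), Slc16a3 (-1.12), Pdk1 (-0.28) and Bnip3 (-0.35).

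For AD CKO over AD WT it also passed for 24 genes. Here the microglial value was above the astrocyte value for Slc2a3 (0.76), Gpi1 (0.54), Pfkp (0.55), Aldoa (0.52), Tpi1 (0.70), Gapdh (0.68), Pgk1 (0.29), Pgam1 (0.69), Eno1 (0.95), Pkm (0.31), Ldha (0.34), Ldhb (0.50), Pdk2 (0.41), Bnip3 (0.63) and Vegfa (1.68). Here the microglial value was below the astrocyte value for Slc2a1 (-0.34), Slc2a5 (-0.41), Hk1 (-0.34), Hk3 (-0.47), Pfkfb2 (-0.51), Slc16a1 (-0.83), Slc16a7 (-1.15), Pdk1 (-0.98) and Egln3 (-1.87).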

How the results depend on the processing

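Of 317 calls over all 14 comparisons, 245 held under every alternative run and 72 were lost under at least 1, and none changed direction. RLE size factors lost 4 of the 317, DESeq2 lost 17, no filter on low counts lost 7 and a mean of at least 1 CPM lost 8. Counts of genes called moved by more than 1.5 times only when a library was left out. Over such refits, the number higher in AD CKO against AD WT microglia (8) ranged from 5 to 9, and the number lower in AD CKO against CKO microglia (3) from 1 to 3. In AD WT against WT astrocytes the number higher (14) ranged from 6 to 14 and the number lower (7) from 4 to 7. In AD CKO against CKO astrocytes the number lower (11) ranged from 6 to 11. The cause was not tested. A group left with 1 library was assumed to vary like the others.

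A replicate block lost 0 of the 317 calls and gave 11 genes higher and 13 lower in AD CKO against AD WT microglia, and 8 higher and 22 lower in CKO against WT astrocytes. Within each cell type, replicate numbers showed no pairing of libraries between groups, with correlations of same-numbered deviations between -0.03 and 0.05. Whether same-numbered microglia and astrocyte libraries of a group were paired was not tested. With 2 libraries per group small changes cannot be resolved, and genes near 1 CPM rest on few counts.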
